A study of Mus musculus with 4 samples.

Results

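The collagen chain genes of the mouse were followed in RNA sequencing of microglia, the resident macrophages of the brain, taken from the cerebral cortex of embryos at embryonic day 16. A gene was counted as a member when its deposited row was protein coding and its symbol had the form Col, a number, a and a number. The rule found 37 of the 21981 genes in the deposited tables, of which 10 encode fibrillar chains, 6 encode type IV chains of basement membranes and 21 encode other chains. Counts in every library were available for 35 of them. Bulk libraries were available from 2 control samples (control 1 and control 6, genotype Bach1 fl/fl, the floxed allele) and 2 conditional knockout samples (cKO 2 and cKO 5, genotype Bach1 cKO). All were untreated, the driver of the knockout is named Cx3 in the series text, and total RNA was taken up in Trizol. The series text names triplicates; no sample other than these 4 is analysed here. Nothing in the labels says whether separate animals were used, so p-values measure the spread among 4 samples, which may be technical. Wherever 4 levels, shares or read counts follow each other, they belong to control 1, control 6, cKO 2 and cKO 5 in that order. The sources used here do not give the floxed exons, the way microglia were isolated or any pooling of animals.

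Collagens are extracellular proteins in which chains wind around each other as trimers, and the chains of a trimer are encoded by separate genes. Type IV chains form the sheet-like network of basement membranes, which in the brain surround the vessels and lie under the meninges. Fibrillar chains build the ropes of connective tissue, and the remaining chains coat fibrils, form beaded filaments, anchor basement membranes or sit in cell membranes.

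The type IV genes lie in head-to-head pairs, and the stretch between the starts of such a pair is shown because both genes are read outward from it. Col4a1 (minus strand) and Col4a2 (plus strand), the main chains of vessel basement membranes, have starts that overlap by 22 bases on chromosome 8. Col4a4 and Col4a3 start 71 bases apart on chromosome 1, and Col4a6 and Col4a5 start 1308 bases apart on chromosome X. The bases upstream of Col3a1, a fibrillar gene, are shown beside those of Col27a1 and Col15a1, the only tested members whose highest 2 CPM values both lay in control 6 and cKO 5. All are plus strand sequence of RefSeq on GRCm38.p6, written 5′ to 3′, with a motif that was searched for in capitals.
Col4a1-Col4a2 overlap, chr8:11312805-11312826, plus strand: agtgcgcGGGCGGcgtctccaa
Col4a4-Col4a3 gap, chr1:82586850-82586920, plus strand: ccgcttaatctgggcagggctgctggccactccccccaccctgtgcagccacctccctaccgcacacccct
Col3a1 upstream, chr1:45311388-45311537, plus strand: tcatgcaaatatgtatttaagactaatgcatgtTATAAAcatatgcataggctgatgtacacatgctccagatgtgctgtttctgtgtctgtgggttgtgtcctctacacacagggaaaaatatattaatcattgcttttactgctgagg
Col27a1 upstream, chr4:63215262-63215411, plus strand: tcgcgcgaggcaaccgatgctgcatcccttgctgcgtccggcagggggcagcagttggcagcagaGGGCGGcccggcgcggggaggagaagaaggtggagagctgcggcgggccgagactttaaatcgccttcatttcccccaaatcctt
Col15a1 upstream, chr4:47207862-47208011, plus strand: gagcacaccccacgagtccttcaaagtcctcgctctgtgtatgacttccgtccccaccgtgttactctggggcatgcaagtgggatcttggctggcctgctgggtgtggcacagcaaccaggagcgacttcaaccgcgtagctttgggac
The RefSeq start used for Col27a1 lies 1408 bases from the start in the deposited tables, and that of Col15a1 lies 149 bases away. G and C made up 37.3% of the Col3a1 stretch, 65.3% of the Col27a1 stretch and 59.3% of the Col15a1 stretch. For 28 members a RefSeq window of 250 bases before to 50 after the start was given, and 4 motifs were searched on both strands of it. Where a gene had several windows, the first listed was searched, for members and for all genes alike. The GC box GGGCGG was found in 17 of the 28 windows and in 35.9% of 27025 promoters of that length, 1 per gene. The CCAAT box (CCAAT) was found in 11 windows and in 37.9% of promoters. The TATA box TATAAA was found in 4 windows (Col3a1, Col10a1, Col11a2 and Col17a1) and in 14.2% of promoters. The core GAGGAAGT of PU.1, a transcription factor of macrophages, was found in none of the 28 windows and in 3.28% of promoters. A match describes letters in a window, not a bound site.

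Library totals ran from 17233115 to 19305078 reads, so that 3 reads, the most that a count of 0 allows, corresponded to between 0.155 and 0.174 CPM (a count scaled to a common library total). Such floors and the intervals below cover counting error only. Bach1, the targeted repressor of heme and antioxidant genes, had 45.8, 21.6, 29.98 and 35.4 CPM. Reads over exons that are not floxed are part of these counts, which therefore do not check the genotype labels. All 12 microglia markers had reads in every library, and their summed level was 26132, 41587, 9411 and 36706 CPM. The libraries therefore carried the labelled cell type, at its lowest summed level in cKO 2, together with markers of vessel and neural cells given below. In bulk RNA, fewer cells of a type and less RNA per cell cannot be told apart.

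Collagen transcripts were abundant in control 1 and cKO 2 and several times scarcer in control 6 and cKO 5, so that each genotype held a collagen-rich and a collagen-poor library. Summed over the collagen genes, the level was 1969, 313, 1570 and 182 CPM. The highest level was 10.8 times the lowest. The mean was 1141 ± 1171 CPM (control) against 876 ± 981 CPM (cKO; SD, n = 2 each), so the genotypes overlapped and the spread within each was as large as its mean. An exact permutation test of 2 against 2 libraries cannot reach 0.05, and none is given for these shares.

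Type IV chains made up most of the collagen reads in all 4 libraries. They took 1470.5, 221, 1087 and 119.6 CPM. Col4a1 and Col4a2 alone held 74.0%, 69.8%, 67.5% and 64.7% of the collagen reads. Fibrillar chains took 211, 46.6, 235.5 and 33.8 CPM, and the other chains 287, 45.9, 247 and 28.7. The class shares by library thus showed the same 2 high and 2 low libraries for each class.

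**Figure D1:**
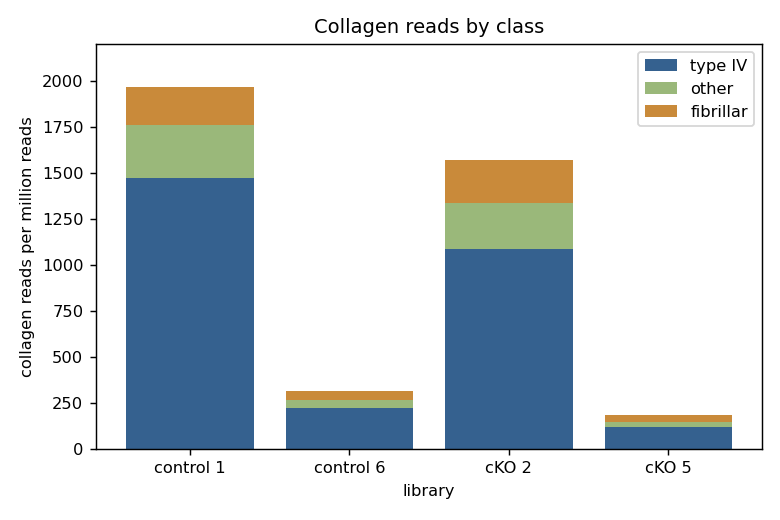
Stacked bars give summed collagen CPM (vertical axis, from 0) in each of the 4 libraries, split into type IV, other and fibrillar chains. Control 1 (1969) and cKO 2 (1570) stand above control 6 (313) and cKO 5 (182), and type IV chains form the largest layer of each bar.

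Summed markers of vessel, connective tissue and neural cells were, like collagen, lowest in control 6 and cKO 5. Of all genes tested, 44.2% had their lowest values in that pair. Between the collagen-rich libraries, the neural sums were higher in the cKO library, where collagen and the vessel and connective tissue sums were lower. The interneuron and Cajal-Retzius sum also differed far less between the controls than collagen did. The 12 endothelial markers summed to 5959, 1292, 4434 and 856 CPM, with none at 0. The largest part of each sum was the glucose transporter gene Slc2a1, at 2278, 612, 1529 and 477 CPM. The 10 pericyte and smooth muscle markers with a row summed to 3626, 713, 3282 and 267 CPM, with none at 0. Endothelial Cldn5, a tight junction gene of brain vessels, and the pericyte gene Rgs5 were among the most abundant of these, at 146 and 190.5 CPM even in cKO 5, the lowest library for both. The 10 fibroblast markers with a row summed to 148, 23.1, 102 and 14.3 CPM (the last over 9, as Slc6a13 has no value there), most of it Igf2, a growth factor gene of several embryonic tissues. Of these fibroblast markers, Dcn and Foxd1 were at 0 in control 6, and Crabp2, Foxd1, Tbx18 and Twist1 in cKO 5. Radial glia markers summed to 420, 123, 1129 and 94.1 CPM with Gfap at 0 in cKO 5, excitatory neuron markers to 1004, 300.3, 3353 and 265 CPM with none at 0, and interneuron and Cajal-Retzius markers to 74.9, 47.6, 347 and 41.4 CPM with Trp73 at 0 in cKO 5. The part of other cell types in the collagen levels was not tested.

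Choroid plexus markers were at low levels. Of 8 markers, 6, including the defining gene Ttr, were at 0 in both controls, had reads in cKO 2 (1.56 CPM for Ttr) and have no value in cKO 5. The sums were 2.63, 2.26 and 8.67 CPM over 8 markers in control 1, control 6 and cKO 2, and 1.50 CPM over Otx2 and Folr1 in cKO 5. Cartilage and bone markers summed to 2968, 3849, 995 and 3751 CPM, over 9, 8, 9 and 8 markers with a value, almost all of it Spp1, which microglia also express. The matrix protein gene Chad had 8.87, 10.2, 3.24 and 7.10 CPM, lowest in cKO 2. The phosphatase gene Alpl had 4.58, 1.22, 13.6 and 0 CPM, high and low in the same libraries as most collagen genes.

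Col4a1 and Col4a2, whose chains assemble together in vessel basement membranes, were the most abundant members. Col4a1 (ENSMUSG00000031502, chromosome 8, 11198423 to 11312826, minus strand, GRCm38) had 818, 106, 644 and 60.0 CPM (14289, 1821, 11150 and 1159 reads). Col4a2 (ENSMUSG00000031503, chromosome 8, 11312805 to 11449287, plus strand) had 639, 113, 416 and 57.7 CPM. Both genes were high in control 1 and cKO 2 and low in the other libraries, so that the genotypes overlapped. Averaged over the 4 libraries, their level per exon length was 54.5 and 46.3 CPM per kb, against 11.6 for Col18a1 and 3.67 for Col3a1, the next members on that scale. The Col4a1 means were 462 ± 504 CPM (control) and 352 ± 413 CPM (cKO; SD, n = 2 each), a log2 fold change of −0.53 ± 1.36 (SE) for cKO against control. Col4a2 had means of 376 ± 372 (control) and 237 ± 254 CPM (cKO), a log2 fold change of −0.80 ± 1.16.

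The other type IV genes were scarce. Col4a5, an X-linked chain of kidney and smooth muscle basement membranes, had 8.01, 0.580, 16.9 and 0 CPM. Its log2 fold change was 0.81 ± 2.46. Col4a3 had 3.20, 0.638, 2.89 and 0.725 CPM (log2 fold change −0.20 ± 1.17). Its neighbour Col4a4 had 2.12, 0.464, 3.29 and 0 CPM. These genes kept the pattern of Col4a1, high in control 1 and cKO 2 and low or absent in the others. Other genes overlap 5.65% of the exon bases of Col4a3, and reads there cannot be told apart because strand is not given.

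Col4a6, the X-linked partner of Col4a5, was the type IV gene whose genotypes did not overlap. It had 0.401, 0.290, 3.87 and 1.09 CPM (7, 5, 67 and 21 reads). Both cKO values thus lay above both control values, and the controls rest on single-digit counts. The log2 fold change was 2.67 ± 1.04, the highest of all members tested, with an adjusted p of 0.9997 (edgeR, quasi-likelihood; unadjusted 0.0575). Col4a6 was picked with its values known.

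Among fibrillar genes, Col3a1, the chain of the homotrimer of elastic tissues and vessel walls, had the highest level. It had 69.7, 9.86, 59.8 and 4.87 CPM (chromosome 1, 45311538 to 45349706). Col5a2, a chain that regulates fibril diameter, had 43.8, 5.16, 61.2 and 2.49 CPM. Col1a2, a chain of type I collagen, had 37.1, 4.99, 30.2 and 2.23 CPM. All 3 genes separated control 1 and cKO 2 from the other libraries and overlapped between genotypes, with log2 fold changes of −0.45 ± 1.36, 0.22 ± 1.60 and −0.53 ± 1.42.

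Col2a1 and Col27a1, both known from cartilage, had opposite profiles. Col2a1 had 13.4, 2.09, 34.0 and 2.23 CPM, highest where the radial glia markers were highest (log2 fold change 1.07 ± 1.45). Col27a1 (ENSMUSG00000045672, chromosome 4, 63214004 to 63334991, plus strand) had 8.81, 18.6, 4.45 and 17.8 CPM (154, 321, 77 and 343 reads). Its 2 highest values lay in the libraries where most members had their lowest, and it made up 40.0% of fibrillar reads in control 6 and 52.6% in cKO 5, against 4.18% in control 1 and 1.89% in cKO 2. The genotypes still overlapped, with means of 13.7 ± 6.94 CPM (control) and 11.1 ± 9.42 CPM (cKO; SD, n = 2 each) and a log2 fold change of −0.31 ± 0.95.

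The other fibrillar genes followed. Col5a1, the partner of Col5a2, had 18.7, 4.35, 18.0 and 1.35 CPM. Col1a1, the partner of Col1a2, had 8.87, 1.04, 6.30 and 0 CPM. Col11a1, a chain of cartilage fibrils, had 7.61, 0, 16.8 and 1.29 CPM. These 3 genes again had their 2 lowest values in control 6 and cKO 5. Col11a2, which partners Col11a1, had 1.43, 0.464, 3.75 and 1.55 CPM, so that both cKO values were the higher ones by a narrow margin over control 1. Col5a3 had 1.37, 0, 1.10 and 0 CPM.

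Of the other chains, Col18a1 and Col15a1 form a family of basement membrane collagens with sugar side chains, and they had opposite patterns. Col18a1 (ENSMUSG00000001435, chromosome 10, 77052178 to 77166548), the source of endostatin, had 185, 21.5, 106 and 13.6 CPM. Col15a1 (ENSMUSG00000028339, chromosome 4, 47208161 to 47313167) had 4.06, 9.75, 2.60 and 6.53 CPM (71, 168, 45 and 126 reads). Col18a1 thus followed Col4a1, while Col15a1 shared the library order of Col27a1. The genotypes overlapped for both, with log2 fold changes of −0.92 ± 1.29 for Col18a1 and −0.64 ± 0.91 for Col15a1.

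Col26a1 showed the widest spread among members with more than 3 reads in every library. It had 30.5, 4.29, 31.9 and 0.622 CPM, a ratio of 51.4 between highest and lowest (log2 fold change −0.26 ± 1.75). Col9a3, a chain of a fibril-coating collagen of cartilage, had 5.49, 4.0, 30.2 and 0 CPM (1.44 ± 2.30). The exons of Col9a3 overlap those of Tcfl5 over 6.07% of their bases. Col22a1, a collagen known from muscle and tendon junctions, had 5.84, 0.348, 19 and 0 CPM (1.45 ± 2.55). For these 3 genes, 1 or both of the libraries with few collagen reads lay far below the rest, and the genotypes overlapped.

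Type VI chains, which form beaded filaments around cells, were present through Col6a2 and Col6a3. Col6a2 had 9.39, 0.174, 10.9 and 1.29 CPM (log2 fold change 0.23 ± 1.82). Col6a3 had 6.93, 0.638, 4.74 and 0.466 CPM. Col6a1 had 1 read in control 6 and 3 reads in cKO 2, with no value given for the remaining libraries.

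The remaining fibril-coating and anchoring chains were scarce. Col16a1 had 7.10, 0.290, 10.7 and 0.932 CPM, Col28a1 had 7.04, 1.04, 7.34 and 0.932 CPM, and Col7a1, the anchoring fibril chain of skin, had 8.70, 0.928, 3.93 and 0.155 CPM. Col12a1 had 4.46, 0.290, 5.72 and 0.414 CPM, Col14a1 had 2.06, 0.348, 1.62 and 0.570 CPM, and Col9a2 had 4.46, 0.522, 2.72 and 0.777 CPM. All 6 had their 2 lowest values in control 6 and cKO 5. Col9a1 had 1.77, 0, 4.22 and 0 CPM. Of the membrane-spanning chains, Col25a1, known from motor axons, had 2.23, 0.638, 1.96 and 0 CPM, and Col23a1 had 1.37, 0, 2.48 and 1.50 CPM. Col17a1, Col10a1, Col19a1, Col20a1 and Col6a1 averaged less than 1 CPM, and of these only Col17a1 entered the tests. Col17a1, a chain of skin hemidesmosomes, had 0.744, 0.464, 0.635 and 0 CPM. Col10a1, a marker of mature growth plate cartilage, had 6, 3, 0 and 13 reads, and Col20a1 had 0, 7, 4 and 5 reads. Col19a1 had 8 reads in cKO 2 and none in the controls, with no value for cKO 5.

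**Figure D2:**
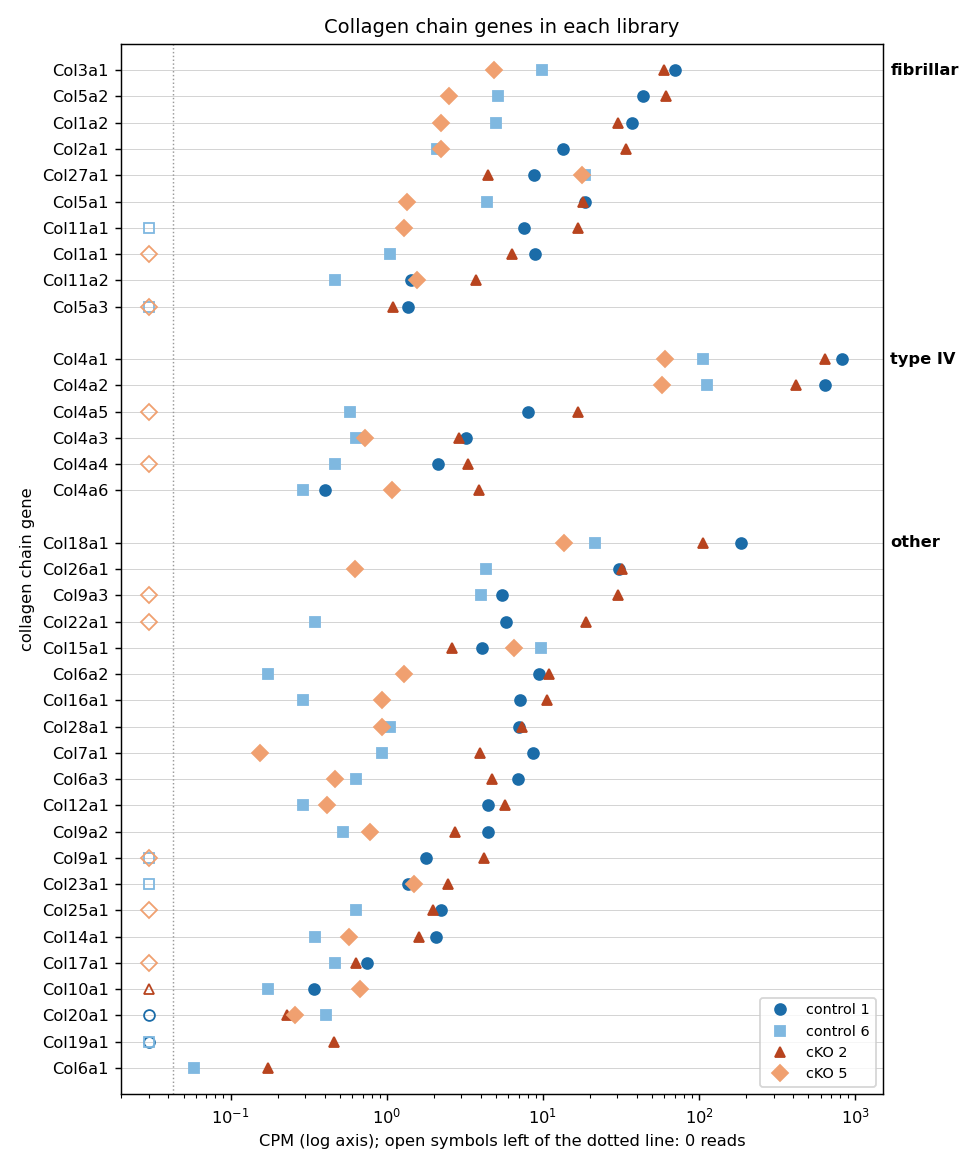
Each row is a collagen chain gene and each symbol its CPM (log axis) in 1 of the 4 libraries, with libraries at 0 reads drawn as open symbols left of the dotted line. In most rows control 1 and cKO 2 lie to the right of control 6 and cKO 5, while Col27a1 and Col15a1 show the opposite order.

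The members varied together across libraries, in a way that crossed the genotypes. Of 33 members tested, 28 had their 2 lowest CPM values in control 6 and cKO 5 (8 of 10 fibrillar, 5 of 6 type IV and 15 of 17 other), a pattern found in 44.2% of all 15951 genes tested. For 2 members, Col27a1 and Col15a1, these libraries held the 2 highest values, as for 20.8% of all genes. The order control 1, cKO 2, control 6, cKO 5 from high to low was held by 11 members (33.3%), including Col4a1, Col4a2, Col18a1, Col3a1, Col1a1 and Col1a2, against 6.57% of all genes. With libraries scaled on the microglia markers, 0 members held that order. The order with cKO 2 above control 1 and the same lower libraries was held by 7 members (21.2%), among them Col5a2, Col4a5, Col26a1, Col22a1 and Col9a3, and by 20.0% of all genes, so that this count was near the background. In the sample titles the collagen-rich libraries carry the numbers 1 and 2 and the collagen-poor libraries 5 and 6. The labels do not say what these numbers stand for, and the part of processing order or batch in the split was not tested. These patterns were described after the values were seen.

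The genotype comparison asks which genes differ between the libraries labelled cKO and those labelled control, and no collagen gene passed its threshold. In edgeR's quasi-likelihood test, 0 of 33 members tested were higher and 0 lower in cKO at an adjusted p under 0.05, and 0.00% of all genes were called. No member had an unadjusted p under 0.05, against 49 of 15951 genes, and the smallest adjusted p was 0.9997. DESeq2 and limma-voom also called 0 members, with 1 and 0 members at an unadjusted p under 0.05. The common dispersion was 0.425 (a coefficient of variation of 0.652 between libraries of a genotype), and 2 residual degrees of freedom were left.

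Log2 fold changes were positive for 14 members and negative for 19, with a range from −1.39 (Col7a1) to 2.67 (Col4a6). Their median was −0.23 over all members tested, −0.36 over fibrillar, −0.02 over type IV and −0.23 over other chains, against 0.03 over all genes. These medians turned on single libraries: the median over all members was 1.50 without control 1, −0.82 without control 6, −2.75 without cKO 2 and 0.50 without cKO 5. Scaling on the microglia markers moved the median of all genes to 1.26 and that of the members to 1.25, so the sign of the members' median follows the scaling. Counting libraries without TMM factors turned the type IV median to 0.13.

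Both cKO values lay above both control values for 3 of 33 members tested (9.09%), Col4a6, Col11a2 and Col23a1, near the 8.33% of all genes. Both lay below for 0 members, against 7.64% of all genes. The 3 members were named after their values were seen, and their log2 fold changes were 2.67 ± 1.04, 1.38 ± 0.97 and 1.50 ± 1.86. Their highest CPM in any library was 3.87, 3.75 and 2.48. Between cKO 5 and control 1, Col11a2 had 30 against 25 reads and Col23a1 had 29 against 24.

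**Figure D3:**
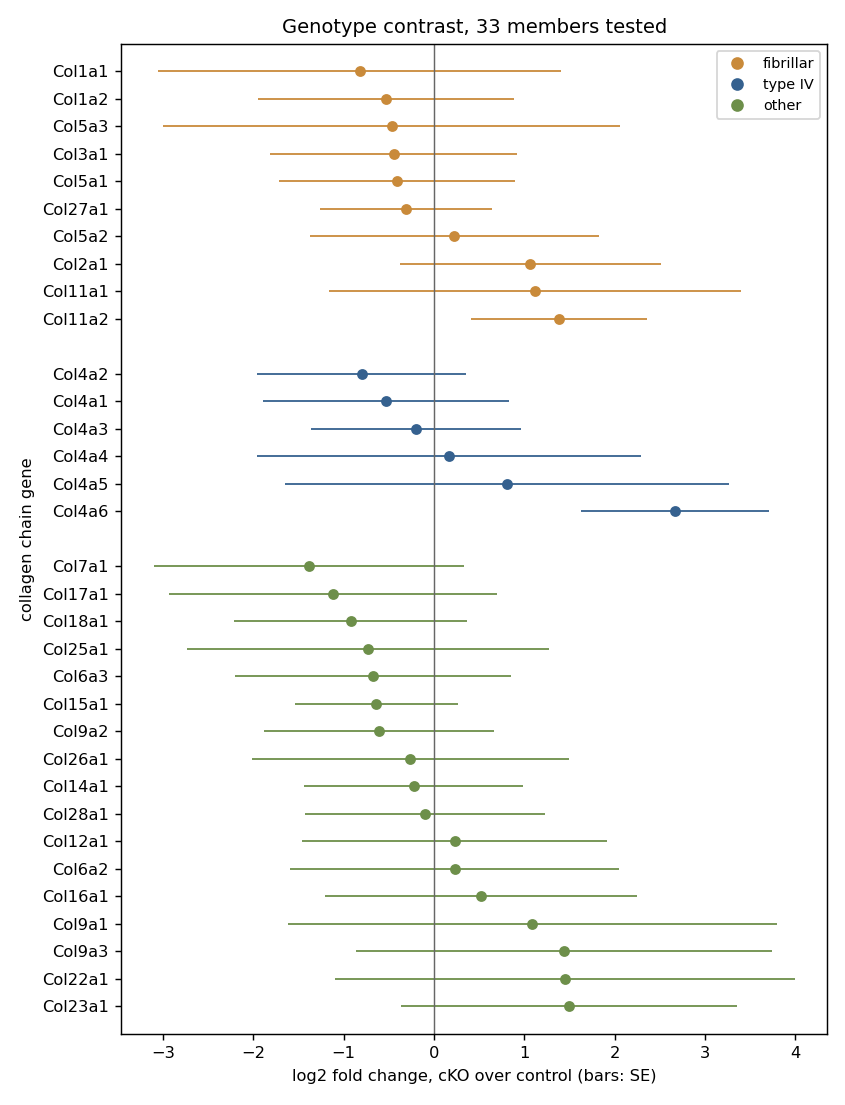
Points give the log2 fold change of each tested collagen gene for cKO over control, with bars of 1 standard error, coloured by class. The bars of most genes cross 0, and those of Col4a6 (2.67 ± 1.04) and Col11a2 (1.38 ± 0.97) do not.

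Comparisons of single libraries depended on which libraries were paired. In the authors' deposited table of cKO 2 against control 1, 9 of 35 members were called higher (20.0% of all genes) and 2 lower (11.6% of all genes). In the authors' deposited table of cKO 2 against control 6, 31 of 36 members were called higher (33.7% of all genes) and 2, Col15a1 and Col27a1, lower (13.4% of all genes). In the authors' deposited table of cKO 5 against control 1, 2 of 35 members, Col27a1 and Col4a6, were called higher (8.79% of all genes) and 28 lower (26.0% of all genes). In the authors' deposited table of cKO 5 against control 6, 7 of 33 members were called higher (9.23% of all genes) and 13 lower (11.4% of all genes). Each table of the authors compares a library with another library rather than the genotypes, and the tables share libraries. Col4a1 shows the size of this dependence: in the authors' deposited tables its log2 fold change was −0.34, 2.61, −3.77 and −0.82 for these pairs, in the order given. The authors called Col4a1 at 2.61 and −3.77 but not at −0.34 and −0.82. Col4a2 and Col18a1 were called for the same pairs as Col4a1. In the authors' deposited tables, Col4a6 had log2 fold changes of 3.27, 3.74, 1.44 and 1.91 for the 4 pairs, in the same order. These had to be positive, because both of its cKO values lay above both control values. The same holds for Col11a2 and Col23a1.

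Chains that assemble in the same trimer were compared as shares of the reads of a pair, which do not depend on library scaling. Col4a1 held 56.1% of the reads of Col4a1 and Col4a2 in control 1 (exact Clopper-Pearson 95% interval 55.5 to 56.7%), 48.3% (46.7 to 49.9%) in control 6, 60.7% (60.0 to 61.5%) in cKO 2 and 51.0% (48.9 to 53.1%) in cKO 5. The share was higher in the libraries rich in collagen, and each genotype held a higher and a lower value. Corrected for exon length, the ratio of Col4a1 to Col4a2 was 1.13, 0.829, 1.37 and 0.923 in that order. Col5a1 held 29.9% (27.2 to 32.7%) of the reads of Col5a1 and Col5a2 in control 1, 45.7% (37.9 to 53.7%) in control 6, 22.7% (20.5 to 25.0%) in cKO 2 and 35.1% (24.4 to 47.1%) in cKO 5. Its share was lower in the collagen-rich libraries, but the interval of cKO 5 contained that of control 1. Again the genotypes overlapped.

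Col1a1, which contributes more chains to the type I trimer than Col1a2, held the smaller part of their reads. Its share was 19.3% (16.6 to 22.2%) in control 1, 17.3% (10.6 to 26.0%) in control 6 and 17.3% (14.4 to 20.5%) in cKO 2, and 0 of 43 reads (0 to 8.22%) in cKO 5. Per exon length the ratio of Col1a1 to Col1a2 was 0.452, 0.396 and 0.395 in the first 3 libraries. That correction used exon unions of 6563 bases for Col1a1 and 12426 bases for Col1a2, which take in every annotated exon. The gene model and settings behind the authors' counts are not given, so the share of Col1a1 cannot be read as its share of transcripts. Col6a2 held 57.5%, 21.4%, 69.6% and 73.5% of the reads of Col6a2 and Col6a3, with an interval of 4.66 to 50.8% in control 6, where the pair had 14 reads. Col4a3 held 60.2%, 57.9% and 46.7% of the reads of Col4a3 and Col4a4 in control 1, control 6 and cKO 2, and all 14 reads in cKO 5. Col4a5 held 95.2%, 66.7% and 81.3% of the reads of Col4a5 and Col4a6 in the same 3 libraries and 0 of 21 reads in cKO 5 (0 to 16.1%).

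**Figure D4:**
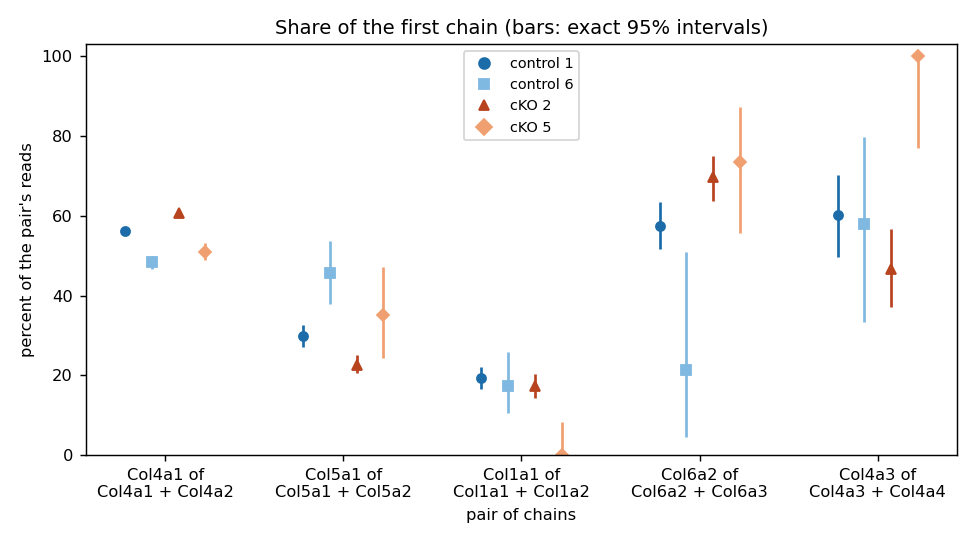
Symbols give the first chain's percent of the reads of each pair in the 4 libraries, with bars for exact 95% intervals. The share of Col4a1 runs from 48.3% to 60.7% with narrow bars, while pairs with few reads, such as Col6a2 with Col6a3 in control 6, have wide bars.

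Levels were also set against the reads of cell type marker lists, with the list for each gene chosen after the values were seen. Col4a1 and Col4a2 together had 402, 307, 323 and 440 reads per 1000 pericyte and smooth muscle marker reads. The highest of these ratios was 1.44 times the lowest, where the same genes spanned 12.4-fold in CPM. Per 1000 endothelial marker reads, Slc2a1 included, the values were 244, 169, 239 and 138, a span of 1.78-fold. On these scales the collagen-rich libraries stood less far from the others than in CPM.

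Several other chains narrowed in the same way, and Col9a3 did not. Col18a1 had 31.0, 16.7, 23.8 and 15.9 reads per 1000 endothelial marker reads, a span of 1.95-fold against 13.6-fold in CPM. The type I and III genes Col1a1, Col1a2 and Col3a1 together had 784, 688, 944 and 495 reads per 1000 fibroblast marker reads. This was a span of 1.91-fold against 16.3-fold. Per 1000 pericyte and smooth muscle marker reads they had 31.9, 22.3, 29.3 and 26.5, a span of 1.43-fold. Col2a1 had 32.0, 16.9, 30.1 and 23.7 reads per 1000 radial glia marker reads, a span of 1.89-fold against 16.3-fold. Per 1000 pericyte and smooth muscle marker reads, Col18a1 had 51.0, 30.2, 32.2 and 50.9, a span of 1.69-fold. Col18a1 and the sum of the type I and III genes thus narrowed on more than 1 list. A ratio narrows where gene and list are both low in control 6 and cKO 5, as 44.2% of all genes are. These spans therefore do not tie a gene to a list, and no span was computed for genes outside the members. The sum of the type I and III genes was not split by gene, and Col1a1 alone had 0 reads in cKO 5. Col9a3 had 13.1, 32.5, 26.8 and 0 reads per 1000 radial glia marker reads, and 5.47, 13.3, 9.01 and 0 per 1000 excitatory neuron marker reads.

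Col27a1 and Col15a1 were set against the microglia markers. Col27a1 had 0.337, 0.448, 0.473 and 0.484 reads per 1000 microglia marker reads, a span of 1.44-fold against 4.19-fold in CPM. Col15a1 had 0.155, 0.234, 0.276 and 0.178, a span of 1.78-fold against 3.75-fold. All collagen genes together spanned from 0.00496 (cKO 5) to 0.167 (cKO 2) reads per microglia marker read. The cells from which any collagen read came were not determined.

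**Figure D5:**
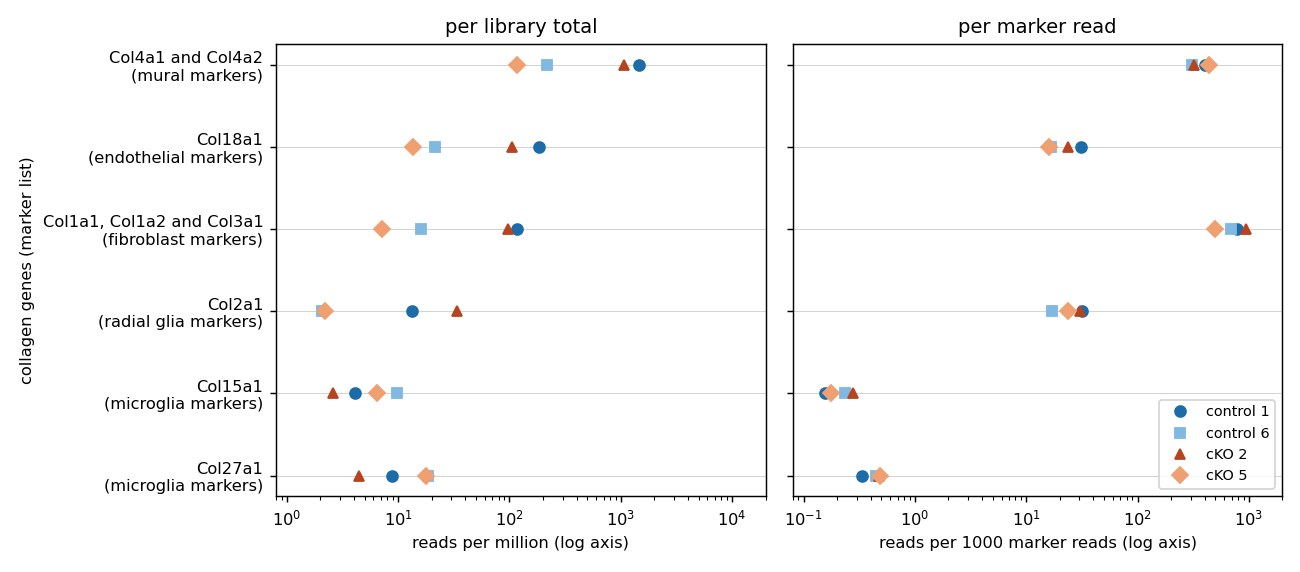
Symbols give collagen levels in the 4 libraries as CPM (left) and as reads per 1000 reads of the marker list named beside each row (right), both on log axes of the same number of decades. The libraries lie closer together on the right, for example 1.44-fold against 12.4-fold for Col4a1 and Col4a2 (mural markers are those of pericytes and smooth muscle). Col9a3, which did not narrow, is not drawn.

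The genes that make, process, bind and degrade collagen differed in how far they shared the profile of the chains, and none of them had an adjusted p under 0.05 in the genotype comparison (edgeR). Among biosynthesis enzymes and chaperones, 18 genes were tested, with 8 positive and 10 negative log2 fold changes and a median of −0.08. Sparc, a secreted collagen-binding protein, had 1706, 1588, 903 and 1225 CPM. The lysyl hydroxylase gene Plod1 had 472, 462, 246 and 473 CPM, and P4hb, a subunit of prolyl 4-hydroxylase, had 444, 431, 282 and 447 CPM. These genes were lowest in cKO 2, the library lowest in microglia markers, and 7 of the 18 had their 2 lowest values in control 6 and cKO 5, as 44.2% of all genes did. Serpinh1, the collagen-specific chaperone, had 105, 29.4, 142 and 15.9 CPM and was high and low in the same libraries as most chains (a gene picked with its values known).

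Of the processing and cross-linking genes, 12 were tested, 6 positive and 6 negative with a median of −0.02. Of these, 10 had their 2 lowest values in control 6 and cKO 5, against 44.2% of all genes. Pxdn, a peroxidase that cross-links type IV collagen, had 84.6, 17.4, 102 and 16.8 CPM. Bmp1, which cleaves procollagen ends, had 25.7, 12.2, 25.5 and 11.9 CPM. Loxl3, of the lysyl oxidase family, had 78.2, 49.1, 54.9 and 28.1 CPM. All 3 shared the library profile of the chains, over a narrower range for Bmp1 and Loxl3.

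Collagen receptors gave 9 tested genes, 2 positive and 7 negative with a median of −0.40. Itgb1, the common integrin β1 chain, had 503, 560, 380 and 695 CPM. Lair1, an inhibitory receptor of immune cells that binds collagen, had 295, 498, 154 and 446 CPM, and Adgrg1, an adhesion receptor for type III collagen, had 193, 239, 219 and 136 CPM. Itgb1 and Lair1 were highest in the libraries with few collagen reads. They were the only 2 of the 9 with that profile, which 20.8% of all genes had. Of the rest, 5 had their 2 lowest values there, as 44.2% of all genes did. Of 11 breakdown genes tested, 5 were positive and 6 negative with a median of −0.07. The inhibitor gene Timp2 had 108, 198, 54.1 and 223 CPM, the gelatinase gene Mmp9 had 210, 38.6, 143 and 29.3 CPM, and the collagenase gene Mmp8 had 43.5, 62.9, 17 and 69.6 CPM. Mmp9 was among the 8 of 11 genes that shared the profile of the chains, against 44.2% of all genes. Timp2 and Mmp8 were among the 3 with their 2 highest values in control 6 and cKO 5, against 20.8% of all genes.

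The other basement membrane genes had the profile of the type IV chains most often. Of 14 tested, 13 had their 2 lowest values in control 6 and cKO 5, against 44.2% of all genes. Their log2 fold changes were 2 positive and 12 negative, with a median of −0.59. The proteoglycan gene Agrn had 387, 87.6, 347 and 49.3 CPM. The laminin gene Lama4 had 414, 50.3, 262 and 20.1 CPM, and the nidogen gene Nid2 had 335, 104, 206 and 101 CPM. Of 9 fibril-associated genes tested, 7 had this profile, against the same 44.2% of all genes. Their changes were 4 positive and 5 negative, with a median of −0.65. Fibronectin (Fn1) had 212, 38.4, 136 and 35.1 CPM, and biglycan (Bgn) had 183, 25.0, 118 and 13.6 CPM.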

How the data were processed

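The data were deposited tables for 4 libraries of embryonic cortical microglia, 2 per genotype, with groups and replicate numbers from the sample titles. The authors deposited 4 tables, each pairing a cKO library with a control library, with raw read counts per Ensembl gene. The deposited normalized values are CPM, where the authors put 0.5 reads in place of 0. CPM was recomputed here from the counts. The authors' fold change is a ratio of such values between a cKO and a control library, and was deposited also as log2. Which test gave each deposited p-value is not stated in these sources. Per the submitters' processing notes, Bowtie2 2.2.3, TopHat2 2.0.12 and HTSeq 0.6.0 were used with the mm9 build, and roles, settings and strandedness are not given, so overlapping genes cannot be told apart. Gene positions in the tables matched GRCm38 (90.3% identical among 21932 genes of GENCODE M21) and are given as such.

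Counts were joined on the gene ID (18723 genes with a count in every library), and genotypes were compared in edgeR 4.0.16 (R 4.3.3) with its quasi-likelihood test, two-sided, with TMM factors, filterByExpr (minimum count 10) and Benjamini-Hochberg adjustment over 15951 genes at 0.05. The standard error is the log2 fold change divided by the root of its F value. Alternatives were DESeq2 1.42.0, limma-voom (limma 3.58.1), other scalings, no filter and leaving out each library. The scripts were tested on simulated data. Fold changes and tests are given for the most abundant members with a mean of at least 1 CPM, up to 5 fibrillar, 4 type IV and 6 other, and up to 3 genes per related or marker list were named by mean CPM. Exceptions are marked in the text. CPM per kb used the exon union of GENCODE M21. The members and lists were chosen with earlier results of these data known. Col24a1, Col6a4, Col6a5, Col6a6, Col8a1, Col8a2, Col13a1 and Col21a1 had no row that met the member rule, so they were not analysed here.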

Additional observations from a re-analysis of the deposited data

How the results depend on the processing

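No collagen gene passed the threshold under any alternative run, and the number of all genes past it stayed 0. Leaving out 1 library at a time moved the number of members with all cKO values above all controls from 3 to between 3 and 14. The number below moved from 0 to between 2 and 18. Fewer values are then compared. The share over all genes was not counted in these runs, so these numbers cannot be set against a background. The median log2 fold change ran from −2.75 to 1.50 over all members, from −2.89 to 1.81 over fibrillar, from −2.65 to 1.42 over type IV and from −2.53 to 1.55 over other chains. For single genes the ranges were −2.77 to 1.40 (Col4a1), −2.53 to 0.75 (Col4a2), −1.24 to 1.21 (Col4a3), −9.17 to 3.47 (Col4a5), −2.86 to 1.37 (Col3a1), −3.12 to 2.27 (Col5a2), −3.06 to 1.35 (Col1a2), −1.63 to 2.77 (Col2a1), −1.91 to 0.45 (Col27a1), −2.74 to 1.15 (Col18a1), −4.62 to 1.56 (Col26a1), −9.37 to 2.43 (Col9a3), −8.69 to 4.37 (Col22a1), −1.69 to 0.25 (Col15a1) and −1.69 to 4.75 (Col6a2). A group left with 1 library was assumed to vary like the other. Scaling on microglia markers gave a median of 1.42 over other chains, log2 fold changes of 1.05 (Col4a1), 0.75 (Col4a2), 1.23 (Col4a3), 1.16 (Col3a1), 1.08 (Col1a2), 0.28 (Col27a1), 0.61 (Col18a1), 1.42 (Col26a1) and 0.22 (Col15a1), and 0 members in the most common library order, against 11 on CPM. Limma-voom turned Col5a2 to −0.34, Col4a5 to −1.69, Col9a3 to −2.27 and Col22a1 to −1.06. The cause of these turns was not tested. No paired analysis was possible because the genotypes share no replicate number (1 and 6 against 2 and 5).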

Other observations

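Col6a1, whose chain is part of the type VI trimer together with those of Col6a2 and Col6a3, had few counted reads. The gene model and settings behind the authors' counts are not given, so this count cannot be read as a low level of the transcript. In cKO 2, Col6a1 had 3 reads where Col6a2 had 188 and Col6a3 had 82. It made up 1.57% of the reads of Col6a1 and Col6a2 in that library (exact 95% interval 0.325 to 4.52%), and 3.53% (0.734 to 9.97%) of those of Col6a1 and Col6a3. Per exon length, the ratio of Col6a1 to Col6a2 was 0.0303. Type IX chains were also uneven: Col9a1 held 24.4% (17.2 to 32.8%) of the reads of Col9a1 and Col9a3 in control 1, 12.2% (9.72 to 15.2%) in cKO 2 and 0 of 69 reads (0 to 5.21%) in control 6.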
